A study of Mus musculus with 12 samples.

Results

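Kupffer cells, the macrophages that line the sinusoids of the liver, and the other macrophages of the organ were followed through 36 genes in 12 mouse liver RNA-seq libraries. The genes were taken by symbol from a list of macrophage markers, and all 36 were found among the 14944 genes listed in at least one of the 4 group tables. The 4 groups, of 3 mice each, were male Otud3-knockout mice given diethylnitrosamine (DEN), their male wild-type littermates given DEN, Otud3-knockout mice without DEN and wild-type mice without DEN, all on C57BL/6. DEN is a carcinogen that hepatocytes activate to a DNA-alkylating agent; it was injected into the peritoneum once, at 25 mg/kg and 15 days of age, and the livers were taken 30 weeks later. The labels give neither age nor sham injection for the mice without DEN, do not say whether a piece held tumour, and do not say which part of Otud3, which encodes a deubiquitinase, was deleted. Otud3 itself was at 1.59 to 5.15 TPM (a level per transcript length and per library) in the 6 livers labelled knockout and 3.21 to 6.16 TPM in the 6 wild-type livers. These ranges overlapped, so "knockout" here means labelled knockout throughout.

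Macrophages of the liver come from more than one source. Resident Kupffer cells settle before birth, renew themselves under CSF1 signalling through Csf1r, and carry Clec4f, Vsig4, Timd4 and, in mice, high Adgre1, the gene of the F4/80 antigen. Blood monocytes, which carry Ccr2 and Itgam, enter injured or tumour-bearing liver and can become macrophages there, including lipid-associated macrophages marked by Trem2, Gpnmb, Cd9 and Spp1. The 36 genes were accordingly read in 4 subsets: 11 resident Kupffer genes, 5 lipid-associated genes, 4 genes of monocyte-derived cells and dendritic integrins, and 16 genes shared by most macrophages (complement C1q, lysosomal proteases, Fc receptors and innate receptors). In a piece of whole liver, more cells of a type and more RNA per cell cannot be told apart.

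The 12 libraries held 29668861 to 31111765 estimated counts each. Of the 36 genes, 35 were listed in all 4 tables and all 35 passed the filter on low counts, within 12909 genes tested. Gpnmb was listed for the other 3 groups but not for the no-DEN knockout livers. One library stood apart from the rest in genes of other cells: DEN wild-type replicate 2 had 55.1 TPM of Afp, the fetal and tumour marker alpha-fetoprotein, against 0.29 to 3.07 TPM in the other 11 livers, and 82.3 TPM of Cyp2e1, a pericentral hepatocyte enzyme, against 3970 to 7442 TPM. A second, DEN knockout replicate 1, stood apart in the macrophage genes themselves and in B cell genes. It held the highest CPM (counts per library size, scaled between libraries by the TMM method) of 23 of the 35 genes, while it was the highest library for 8.51% of all genes tested. Results are therefore also given without these libraries.

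**Figure D1:**
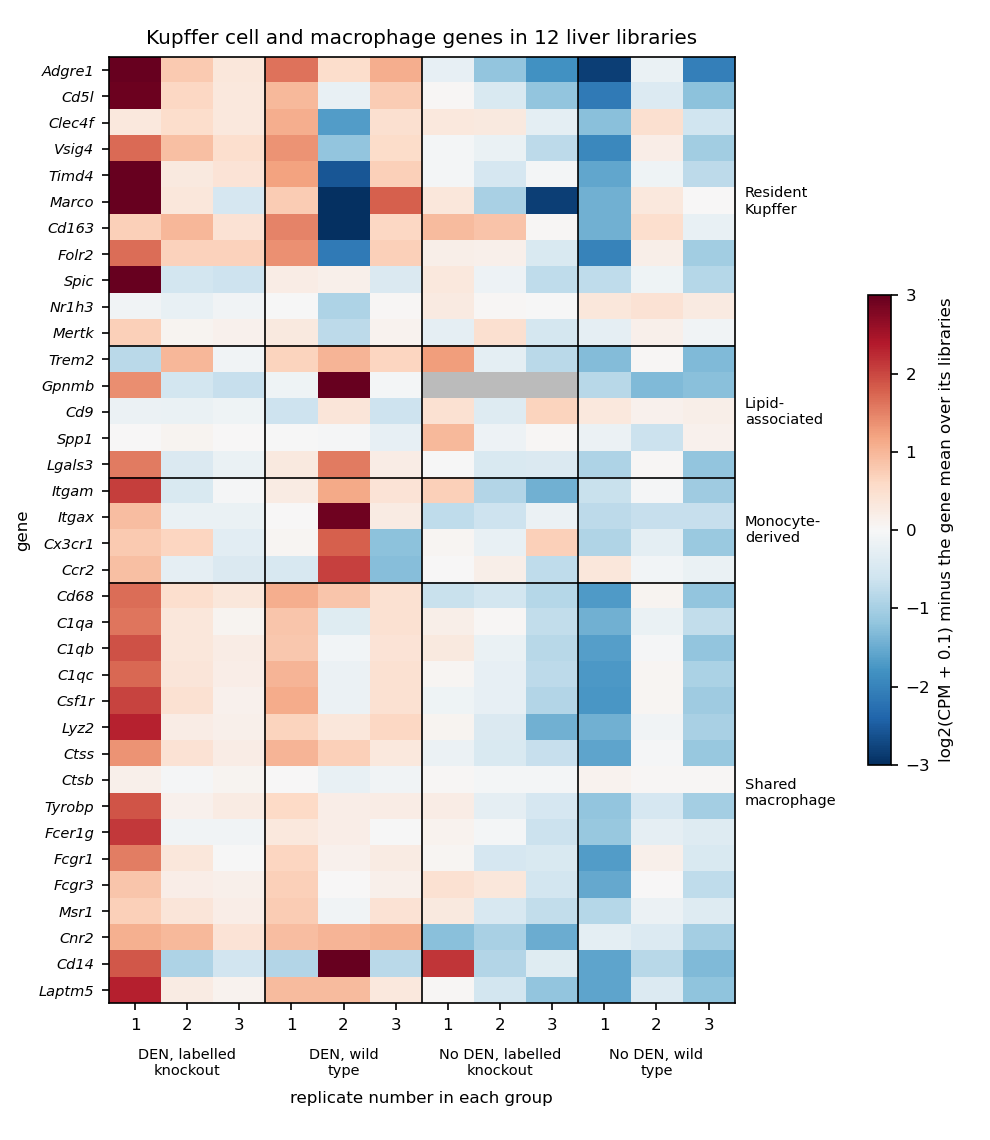
Levels of the 36 genes (rows, grouped by subset) in the 12 livers (columns, 3 per group), as log2(CPM + 0.1) minus the gene's mean over the libraries that list it. Red is above that mean, blue below, and grey marks Gpnmb in the group whose table does not list it. The DEN libraries on the left are mostly red, darkest in DEN knockout replicate 1, and DEN wild-type replicate 2 is blue for most resident Kupffer genes and red for the monocyte-derived genes.

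Macrophage genes were higher with DEN than without it. Averaged over both genotypes, 12 of the 35 genes rose and 0 fell at an adjusted p under 0.05, whereas 8.4% of all genes tested were called higher. The genes that rose were Cnr2, Cd68, Ctss, Laptm5, Adgre1, Cd5l, Tyrobp, Lyz2, Msr1, Csf1r, C1qc and Itgax: 2 of the 11 resident Kupffer genes, 1 of the 4 monocyte-derived genes, 9 of the 16 shared genes and 0 of the 4 lipid-associated genes tested. The median log2 fold change of the 35 genes was 1.21, against 0.00575 over all genes, and 31 of the 35 were positive. Scaled by library size alone, 19 of the 35 rose and 0 fell, but the split over all genes was then 28% higher and 1.88% lower, against 8.4% and 8.1% with TMM. At an unadjusted p under 0.05 there were 24 of the 35, and 35.9% of all genes. Libraries with and without DEN did not overlap for 6 of them (Adgre1, Cd68, Lyz2, Ctss, Cnr2 and Laptm5), as for 5.04% of all genes in the higher direction. Single libraries weighed on the count and on the share of all genes called. The count was 6 without DEN knockout replicate 1, where 4.08% of all genes were called higher and 2.79% lower. It was 19 (17 higher, 2 lower) without DEN wild-type replicate 2, with 10.9% of all genes higher and 12.6% lower. Without both it was 15 (13 higher, 2 lower), with 7.97% and 7.91%. It was 2 without no-DEN wild-type replicate 3 (2.74% of all genes higher) and 3 without no-DEN wild-type replicate 1 (4.13%). It was 4 without no-DEN knockout replicate 2 (5.01%) and 5 without no-DEN knockout replicate 3 (5.95%). It was 6 without DEN wild-type replicate 1 (7.03%).

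Among the shared genes, the call held in all 23 alternatives for Cnr2 and Cd68. It was lost in 1 of them for Ctss, 2 for Laptm5, 6 for Tyrobp and 7 for Lyz2. For Msr1, Csf1r and C1qc it was lost in 9, 11 and 13. Without DEN knockout replicate 1, the log2 fold changes of Lyz2, Csf1r and C1qc were 0.98, 0.99 and 0.89, and none was called. Cnr2 encodes the cannabinoid receptor of immune cells, found on macrophages and B cells. It had 3.29, 3.08 and 2.06 CPM in DEN knockout livers and 2.99, 3.16 and 3.3 CPM in DEN wild-type livers, against 0.576, 0.722 and 0.478 CPM in no-DEN knockout livers and 1.22, 1.12 and 0.695 CPM in no-DEN wild-type livers. All 6 DEN livers lay above all 6 others, and the values within a group were close. DEN knockout replicate 1, the highest library for 23 of the 35 genes, did not stand out in Cnr2. It was at 3.29 CPM there, against 3.3 CPM in DEN wild-type replicate 3, so Cnr2 did not follow the other macrophage genes in that liver. The log2 fold change was 1.93 ± 0.21 (SE, adjusted p = 0.00164). Cd68, a lysosomal membrane glycoprotein and general macrophage marker, had 17.99, 7.89 and 7.05 CPM in DEN knockout livers and 11.98, 9.95 and 7.63 CPM in DEN wild-type livers, against 3.46, 3.79 and 3.02 CPM in no-DEN knockout livers and 1.63, 5.84 and 2.396 CPM in no-DEN wild-type livers. Here too the 6 DEN livers were the 6 highest, with DEN knockout replicate 1 well above the rest. Cd68 rose by a log2 fold change of 1.63 ± 0.33 (SE, adjusted p = 0.0138).

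The lysosomal protease cathepsin S, which trims the invariant chain of MHC class II, is encoded by Ctss. Its values were 42.7, 22.4 and 19.5 CPM in DEN knockout livers and 34, 27.2 and 20.7 CPM in DEN wild-type livers, against 14.7, 11.99 and 10.2 CPM in no-DEN knockout livers and 5.52, 16.3 and 7.56 CPM in no-DEN wild-type livers. No DEN liver was as low as the highest liver without DEN. Its log2 fold change was 1.34 ± 0.29 (SE, adjusted p = 0.0167). Laptm5, a lysosomal membrane protein of haematopoietic cells, had 53.2, 12.5 and 11.2 CPM in DEN knockout livers and 20.3, 20.4 and 13.04 CPM in DEN wild-type livers, against 10.7, 7.15 and 4.52 CPM in no-DEN knockout livers and 3.41, 7.78 and 4.46 CPM in no-DEN wild-type livers. The groups just failed to touch, at 11.2 CPM in the lowest DEN liver and 10.7 CPM in the highest liver without DEN. The log2 fold change of Laptm5 was 1.78 ± 0.42 (SE, adjusted p = 0.0214). Lyz2, lysozyme of macrophages and neutrophils, had 155, 36.6 and 34.9 CPM in DEN knockout livers and 49.4, 39.4 and 48.5 CPM in DEN wild-type livers, against 32.98, 22.96 and 11.4 CPM in no-DEN knockout livers and 11.5, 28.97 and 15.8 CPM in no-DEN wild-type livers. These did not overlap either, although reads of Lyz2 can be shared with its near copy Lyz1. Lyz2 rose by a log2 fold change of 1.52 ± 0.42 (SE, adjusted p = 0.0365).

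**Figure D2:**
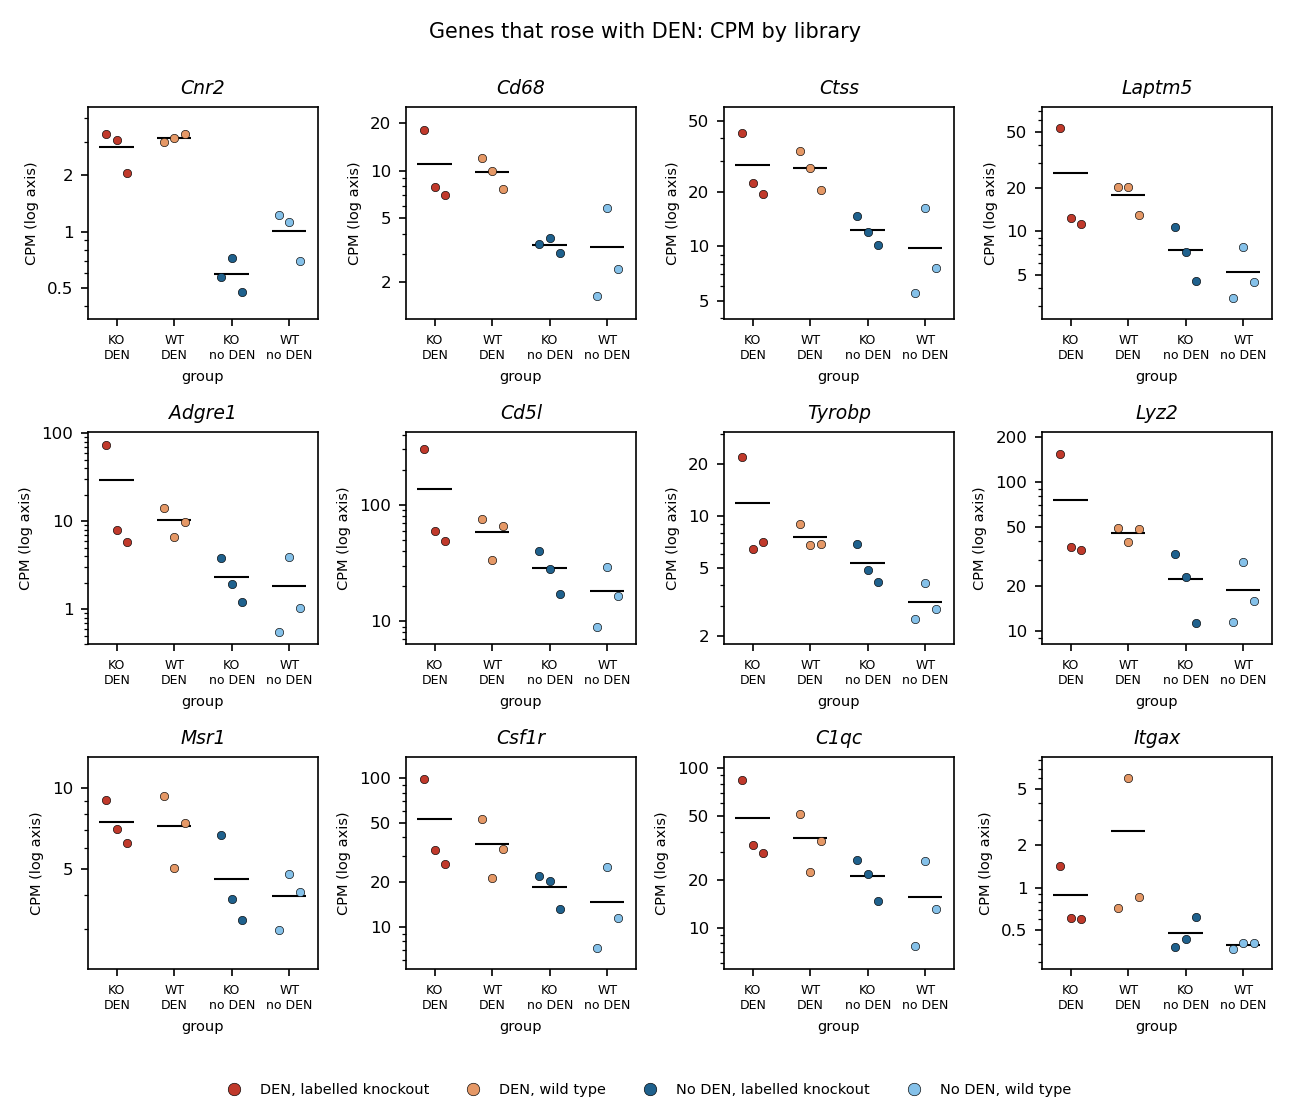
CPM (log axis) of the 12 genes that rose with DEN over both genotypes, one panel per gene, in order of p. Each point is a liver and each bar the mean of the 3 livers of a group. DEN knockout replicate 1 is the highest liver in 9 of the 12 panels, and DEN wild-type replicate 2 is the highest for Itgax.

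Tyrobp is the signalling adaptor that pairs with Trem2 and other activating receptors. It had 21.99, 6.43 and 7.03 CPM in DEN knockout livers and 9.02, 6.75 and 6.86 CPM in DEN wild-type livers, against 6.91, 4.87 and 4.12 CPM in no-DEN knockout livers and 2.52, 4.11 and 2.88 CPM in no-DEN wild-type livers. One liver without DEN, knockout replicate 1, lay within the DEN range. The log2 fold change was 1.2 ± 0.31 (SE, adjusted p = 0.0288). Msr1, the class A scavenger receptor that takes up modified lipoproteins, had 9.08, 7.07 and 6.24 CPM in DEN knockout livers and 9.35, 5.04 and 7.402 CPM in DEN wild-type livers, against 6.68, 3.86 and 3.24 CPM in no-DEN knockout livers and 2.96, 4.79 and 4.13 CPM in no-DEN wild-type livers. The ranges overlapped, and the lowest DEN value was that of wild-type replicate 2. Msr1 rose by a log2 fold change of 0.79 ± 0.23 (SE, adjusted p = 0.0392), the smallest of the 12. Csf1r, the receptor for CSF1 and IL-34 on which resident macrophages depend, had 99.7, 33.1 and 26.5 CPM in DEN knockout livers and 52.9, 21.4 and 33.4 CPM in DEN wild-type livers, against 22.1, 20.3 and 13.2 CPM in no-DEN knockout livers and 7.22, 25.2 and 11.5 CPM in no-DEN wild-type livers. Only wild-type replicate 2 of the DEN livers fell within the range of the livers without DEN. Csf1r rose by 1.4 ± 0.41 (SE, adjusted p = 0.0422) on the log2 scale.

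The 3 chains of complement C1q, made in the liver mainly by macrophages, are encoded side by side on chromosome 4 (C1qc at chr4:136889801-136892936 in GRCm38.p6). C1qc had 83.9, 32.8 and 29.3 CPM in DEN knockout livers and 51.3, 22.4 and 35.02 CPM in DEN wild-type livers, against 26.6, 21.6 and 14.7 CPM in no-DEN knockout livers and 7.67, 26.3 and 13.1 CPM in no-DEN wild-type livers. As with Csf1r, only wild-type replicate 2 of the DEN livers lay within the no-DEN range. C1qc passed the threshold with a log2 fold change of 1.21 ± 0.37 (SE, adjusted p = 0.0477). The other chains kept close to it and just missed the threshold: C1qb had 94.6, 31.9 and 29.2 CPM in DEN knockout livers and 44.1, 23.9 and 33.6 CPM in DEN wild-type livers, against 30.7, 21.7 and 13.9 CPM in no-DEN knockout livers and 7.85, 24.5 and 10.9 CPM in no-DEN wild-type livers, with an adjusted p of 0.05002. C1qa had 78.6, 32.5 and 27.2 CPM in DEN knockout livers and 45.6, 20.1 and 35.7 CPM in DEN wild-type livers, against 28.9, 26.5 and 15.4 CPM in no-DEN knockout livers and 9.37, 22.4 and 15.3 CPM in no-DEN wild-type livers, with an adjusted p of 0.0551. Over the 12 livers the TPM of C1qc was 0.841 to 1.21 times that of C1qa, while the mean TPM of the 3 chains ran from 10.4 to 142. C1q lies 1.99 to 2.0 Mb from Otud3, and Cnr2 (2.97 Mb) and Laptm5 (7.95 Mb) are on the same chromosome.

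Promoter sequences are shown for the genes whose windows hold GAGGAAGT, letters bound by PU.1, the ETS factor that macrophages need. RefSeq windows of GRCm38.p6, from 250 bases before to 50 after a transcript start, were found for 29 of the 36 genes, and the 8 letters were searched on both strands. They stood in 3 of 34 windows of these genes (8.82%) and in 1052 of all 32851 windows (3.2%). The 3 genes are C1qc and Ctss, which rose with DEN, and Spp1, which did not pass the test. Each is printed 5′ to 3′ on the gene's strand from 200 bases before to 20 after the start, with the match in capitals. The C1qc window is chr4:136892895-136893114 on the minus strand and its match begins 195 bases before the start. The Ctss window is chr3:95526586-95526805 on the plus strand, with a match that begins 2 bases before the start and runs past it. The Spp1 window is chr5:104434911-104435130 on the plus strand, with a match that begins 113 bases before the start. In C1qc and Ctss the letters are on the opposite strand, so that ACTTCCTC is read.
C1qc: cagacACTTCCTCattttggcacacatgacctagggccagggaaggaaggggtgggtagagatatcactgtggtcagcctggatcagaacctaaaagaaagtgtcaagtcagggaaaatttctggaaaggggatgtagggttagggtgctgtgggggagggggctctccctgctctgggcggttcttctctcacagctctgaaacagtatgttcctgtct
Ctss: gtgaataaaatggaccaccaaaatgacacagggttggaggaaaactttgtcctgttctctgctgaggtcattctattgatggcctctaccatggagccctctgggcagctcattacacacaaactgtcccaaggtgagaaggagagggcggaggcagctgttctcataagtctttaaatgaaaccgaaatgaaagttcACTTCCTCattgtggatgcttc
Spp1: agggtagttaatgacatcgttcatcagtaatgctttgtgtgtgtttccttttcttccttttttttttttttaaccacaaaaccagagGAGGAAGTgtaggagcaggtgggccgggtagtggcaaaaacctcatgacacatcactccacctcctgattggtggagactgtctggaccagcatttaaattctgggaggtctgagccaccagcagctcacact

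The shared genes that did not pass moved less or varied more. Fcgr1, the high-affinity IgG receptor, had 5.23, 2.22 and 1.73 CPM in DEN knockout livers and 2.79, 1.93 and 2.08 CPM in DEN wild-type livers, against 1.805, 1.19 and 1.25 CPM in no-DEN knockout livers and 0.481, 1.94 and 1.25 CPM in no-DEN wild-type livers, with an adjusted p of 0.0774. Fcer1g, the signalling chain of Fc receptors, had 24.6, 5.12 and 5.12 CPM in DEN knockout livers and 6.92, 6.34 and 5.51 CPM in DEN wild-type livers, against 5.95, 5.31 and 3.49 CPM in no-DEN knockout livers and 2.48, 4.59 and 4.24 CPM in no-DEN wild-type livers, with an adjusted p of 0.0984. For both, most DEN livers were above most livers without DEN, and the ranges overlapped. Fcgr3 ran from 5.27 to 9.37 CPM with DEN and from 1.73 to 7.25 CPM without, and Ctsb, cathepsin B, from 543 to 701 CPM with DEN and 604 to 681 CPM without. Ctsb was the most abundant of the genes per length, with a median of 445 TPM over the 12 livers; hepatocytes make it too, and it overlaps the coding gene Fdft1. Cd14, the lipopolysaccharide co-receptor, had no common direction: 3 livers stood out, DEN wild-type replicate 2 at 71.2 CPM, DEN knockout replicate 1 at 14.3 CPM and no-DEN knockout replicate 1 at 17.4 CPM, and the other 9 lay between 1.22 and 2.98 CPM. Fcgr3, Ctsb and Cd14 are named after their values were seen, as are the further genes given by range below.

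Of the 11 resident Kupffer genes 10 had a positive log2 fold change with DEN, with a median of 1.35 over the 11, and 2 rose. Adgre1, an adhesion receptor, had 73.9, 7.89 and 5.81 CPM in DEN knockout livers and 14.2, 6.57 and 9.74 CPM in DEN wild-type livers, against 3.84, 1.95 and 1.21 CPM in no-DEN knockout livers and 0.555, 3.94 and 1.03 CPM in no-DEN wild-type livers. Every DEN liver was above every liver without DEN. Its log2 fold change, 3.05 ± 0.72 (SE, adjusted p = 0.0216), was the largest of the 12 that rose, but it was 2.0 without DEN knockout replicate 1, and 2.12 ± 0.49 (adjusted p = 0.0252) without either library that stood apart. Cd5l, a secreted protein of Kupffer cells that inhibits apoptosis of macrophages, had 302, 59.9 and 48.4 CPM in DEN knockout livers and 76, 33.5 and 65.8 CPM in DEN wild-type livers, against 40.1, 28.1 and 17.03 CPM in no-DEN knockout livers and 8.85, 29.1 and 16.4 CPM in no-DEN wild-type livers. DEN wild-type replicate 2 and no-DEN knockout replicate 1 made the ranges overlap. Cd5l rose by a log2 fold change of 1.98 ± 0.5 (SE, adjusted p = 0.0276), which was 1.31 and no longer called without DEN knockout replicate 1, and 1.45 ± 0.32 (adjusted p = 0.0233) without both libraries.

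Vsig4, a complement receptor through which Kupffer cells capture bacteria, had 30.6, 17.6 and 13.3 CPM in DEN knockout livers and 24.1, 4.04 and 13.7 CPM in DEN wild-type livers, against 8.91, 8.12 and 5.33 CPM in no-DEN knockout livers and 2.37, 10.8 and 4.496 CPM in no-DEN wild-type livers, with an adjusted p of 0.0647. Timd4, a phosphatidylserine receptor for uptake of apoptotic cells, had 25.7, 3.75 and 4.09 CPM in DEN knockout livers and 7.09, 0.426 and 5.06 CPM in DEN wild-type livers, against 2.92, 2.09 and 2.91 CPM in no-DEN knockout livers and 0.963, 2.75 and 1.73 CPM in no-DEN wild-type livers, with an adjusted p of 0.103. In both genes DEN wild-type replicate 2 was the lowest or next to lowest of all 12 livers, and the other 5 DEN livers were above all 6 livers without DEN. That split sets aside a liver chosen after its values were seen, and its share over all genes was not counted. Without DEN wild-type replicate 2 the log2 fold change of Vsig4 was 1.57 ± 0.38 (adjusted p = 0.0179) and that of Timd4 was 1.91 ± 0.53 (adjusted p = 0.0293). With all libraries they were 1.35 and 1.64. Without DEN knockout replicate 1 they were 1.15 and 0.88, and neither was called. Without both libraries they were 1.37 (adjusted p = 0.0404) and 1.16 (adjusted p = 0.0190). Folr2, folate receptor beta, had the same arrangement as Vsig4 and Timd4. It was at 0.853 CPM in DEN wild-type replicate 2 and 6.54 to 13.2 CPM in the other DEN livers, against 0.926 to 4.59 CPM without DEN. Marco, a scavenger receptor of Kupffer cells and of marginal-zone macrophages in the spleen, had 260.3, 5.12 and 2.82 CPM in DEN knockout livers and 6.86, 0.201 and 14.2 CPM in DEN wild-type livers, against 5.07, 1.99 and 0.478 CPM in no-DEN knockout livers and 1.41, 5.06 and 4.02 CPM in no-DEN wild-type livers. Its value in DEN knockout replicate 1 was 18.3 times the next highest. The adjusted p of Marco was 0.0928. Spic, the transcription factor of iron-recycling macrophages, showed the same library, with 12.5 CPM there and 0.479 to 1.19 CPM in the other 11 livers.

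The other resident genes did not pass the DEN test. Clec4f, a lectin that marks Kupffer cells in mice, was at 14.9 to 102 CPM with DEN and 19.9 to 66.0 CPM without. Cd163, the haemoglobin-haptoglobin receptor, was at 0.125 to 19.1 CPM with DEN and 2.41 to 13.1 CPM without; its lowest value, in DEN wild-type replicate 2, rested on 5 counts. Mertk, an efferocytosis receptor, was at 8.78 to 25.0 CPM with DEN and 10.5 to 21.3 CPM without. Nr1h3, the oxysterol receptor LXR alpha, which hepatocytes also express, had 82.9, 77.3 and 83.4 CPM in DEN knockout livers and 89.02, 47.6 and 92.5 CPM in DEN wild-type livers, against 109, 92.3 and 88.6 CPM in no-DEN knockout livers and 113, 122 and 108 CPM in no-DEN wild-type livers. It was the one resident gene with a negative log2 fold change, with an adjusted p of 0.0776. Without DEN wild-type replicate 2 it was called lower, by -0.29 ± 0.08 (adjusted p = 0.0252). Over all 12 libraries its log2 fold change was -0.42 with TMM, -0.16 with library size only and -0.06 on log2(TPM + 0.1). Reads of Nr1h3 may include those of Acp2, which it overlaps. Clec4f, Cd163 and Mertk were not called without DEN wild-type replicate 2, nor without both libraries that stood apart.

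The 11 resident genes summed to 896, 278 and 250 CPM in DEN knockout livers and 368, 118 and 302 CPM in DEN wild-type livers, against 260.1, 232 and 175 CPM in no-DEN knockout livers and 164, 271 and 189 CPM in no-DEN wild-type livers. It was highest in DEN knockout replicate 1 and lowest in DEN wild-type replicate 2. As summed TPM the first was again the highest, at 690 TPM, but DEN wild-type replicate 2, at 120.7 TPM, was above 3 livers without DEN. Nr1h3, which hepatocytes also express, held 47.6 to 122 CPM and so weighed on these sums.

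Since C1q tracks macrophages of all kinds, each resident gene was set against the mean TPM of the 3 C1q chains in the same liver, a description added after the values were seen. Adgre1 was 0.0581 to 0.238 times that mean in the 6 DEN livers and 0.0201 to 0.0460 times in the 6 livers without DEN, with no overlap. Cd5l was 0.684 to 1.61 times the mean with DEN and 0.488 to 0.637 times without, again with no overlap. These 2 genes stood higher relative to C1q in every DEN liver, which was so for 0.031% of all genes tested, C1q itself being higher with DEN. Nr1h3 and Ctsb stood lower relative to C1q in every DEN liver, as did 12.5% of all genes. Clec4f per C1q was 0.252 to 0.811 with DEN and 0.775 to 1.02 without.

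**Figure D3:**
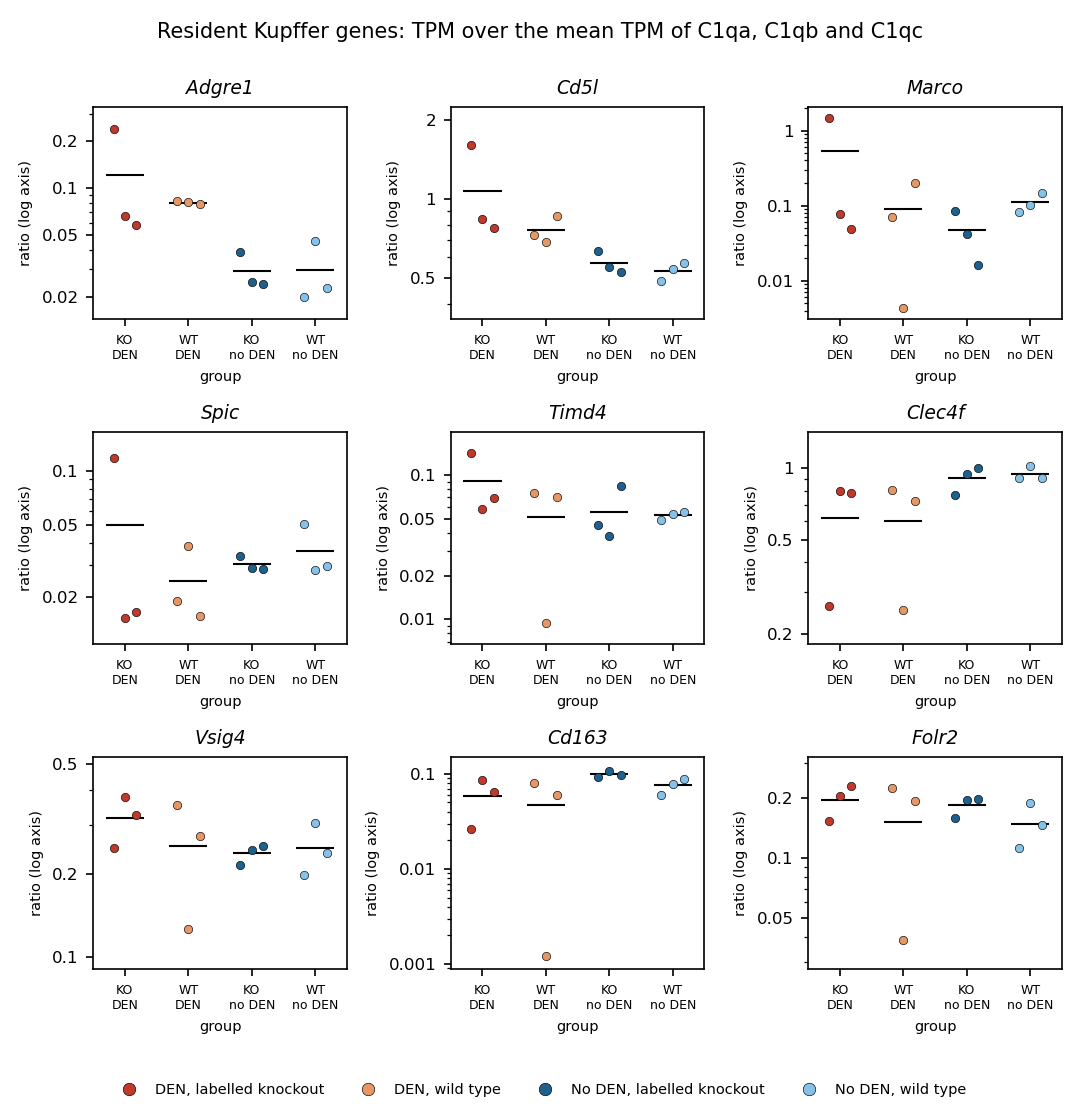
TPM of 9 resident Kupffer genes divided by the mean TPM of C1qa, C1qb and C1qc in the same liver (log axis), by group. Points are livers and bars the mean of 3 livers. Adgre1 and Cd5l lie higher in all 6 DEN livers, Marco and Spic stand out in DEN knockout replicate 1, and DEN wild-type replicate 2 is the lowest point for Marco, Timd4, Clec4f, Vsig4, Cd163 and Folr2.

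The same ratio separated the libraries that stood apart. In DEN wild-type replicate 2, 7 of the 11 resident genes were lower relative to C1q than in any of the 10 livers other than DEN knockout replicate 1, while all 4 monocyte-derived genes, 3 lipid-associated genes and 7 of the 16 shared genes were higher. Of all genes tested, 9.66% were lower and 9.81% higher in this way in that library. Among the 7 shared genes was C1qb, which is itself part of the C1q mean. In DEN knockout replicate 1, 5 resident genes were above those 10 livers, as were 0.666% of all genes: Marco at 1.48, Cd5l at 1.61, Adgre1 at 0.238, Timd4 at 0.143 and Spic at 0.118 times the C1q mean. In that liver 4 were below them, among them Clec4f at 0.261 and Cd163 at 0.0262, as were 85.7% of all genes, its C1q being the highest. Markers of B cells moved with this library: Cd79a was at 19.5 TPM there and 0.3 to 3.02 TPM in the other 11 livers, and Cd79b at 10.4 TPM there and 0.19 to 1.59 TPM in the others. The part of other cells in these values was not tested.

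The 4 genes of monocyte-derived cells and dendritic integrins had the lowest levels of the 35 genes listed in all 4 tables, with medians of 0.125 to 0.24 TPM over the 12 livers. Itgax, the integrin CD11c of dendritic cells and activated macrophages, had 1.44, 0.609 and 0.606 CPM in DEN knockout livers and 0.722, 6.04 and 0.865 CPM in DEN wild-type livers, against 0.384, 0.433 and 0.625 CPM in no-DEN knockout livers and 0.3703, 0.408 and 0.405 CPM in no-DEN wild-type livers. The DEN livers overlapped those without DEN at their low end only, and wild-type replicate 2 was 4.2 times the next highest. Itgax rose by a log2 fold change of 1.78 ± 0.55 (SE, adjusted p = 0.0482), but by 0.94 ± 0.29 (adjusted p = 0.0418) without that library and, with neither of the libraries that stood apart, the value was 0.67 ± 0.22 and not called (adjusted p = 0.0668).

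Itgam, the integrin CD11b of monocytes and neutrophils, had 3.998, 0.609 and 0.848 CPM in DEN knockout livers and 1.05, 2.06 and 1.19 CPM in DEN wild-type livers, against 1.497, 0.433 and 0.258 CPM in no-DEN knockout livers and 0.518, 0.849 and 0.369 CPM in no-DEN wild-type livers, with an adjusted p of 0.120. Cx3cr1, the fractalkine receptor, had 0.823, 0.731 and 0.333 CPM in DEN knockout livers and 0.459, 1.75 and 0.128 CPM in DEN wild-type livers, against 0.461, 0.361 and 0.772 CPM in no-DEN knockout livers and 0.185, 0.3397 and 0.147 CPM in no-DEN wild-type livers, with an adjusted p of 0.206. Ccr2, the receptor that brings monocytes out of the marrow, had 1.38, 0.548 and 0.484 CPM in DEN knockout livers and 0.461, 3.18 and 0.224 CPM in DEN wild-type livers, against 0.691, 0.794 and 0.368 CPM in no-DEN knockout livers and 0.889, 0.645 and 0.5897 CPM in no-DEN wild-type livers, with an adjusted p of 0.461. For all 4 genes the highest livers were the 2 libraries that stood apart, DEN wild-type replicate 2 leading for Itgax, Cx3cr1 and Ccr2 and DEN knockout replicate 1 for Itgam. DEN wild-type replicate 2 was also the highest library for 26.2% of all genes tested and the lowest for 27.8%. Without both the log2 fold change of Ccr2 was -0.65, against 0.63 with all 12 libraries. Counts were low, from 4 to 24 for Cx3cr1 and 7 to 24 for Ccr2 outside those libraries.

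Of the lipid-associated genes 0 of 4 passed the DEN test in edgeR, where 1, Lgals3, had an unadjusted p under 0.05; DESeq2, scaling by library size only and log2(TPM + 0.1) called Lgals3 higher, limma-voom called 0, and with quality weights it called Trem2 higher and Cd9 lower. With genes missing from a table set to 0, Gpnmb was called higher. That call rests on values of 0 given to the no-DEN knockout livers, whose own values are not known. DEN wild-type replicate 2 had 215 counts of Gpnmb, against 7 to 42 in the other DEN livers. Lgals3, galectin-3, had 11.6, 2.86 and 3.36 CPM in DEN knockout livers and 4.82, 11.6 and 4.58 CPM in DEN wild-type livers, against 3.84, 2.82 and 2.87 CPM in no-DEN knockout livers and 2, 3.97 and 1.66 CPM in no-DEN wild-type livers, with an adjusted p of 0.0675. The values near 12 CPM were those of the 2 libraries that stood apart. Cd9, a tetraspanin that hepatocytes and bile duct cells also carry, had 15.5, 15.1 and 15.9 CPM in DEN knockout livers and 11.3, 22.6 and 11.3 CPM in DEN wild-type livers, against 24.1, 13.3 and 27.8 CPM in no-DEN knockout livers and 21.9, 19.02 and 19.6 CPM in no-DEN wild-type livers, with an adjusted p of 0.149. Without DEN wild-type replicate 2, the DEN liver with the most Cd9, Cd9 fell by 0.66 on the log2 scale (SE 0.16, adjusted p = 0.0179). Over all 12 libraries its log2 fold change was -0.45 with TMM, -0.15 with library size only and -0.07 on log2(TPM + 0.1). Trem2, a lipid receptor that signals through Tyrobp, had 0.147, 0.762 and 0.303 CPM in DEN knockout livers and 0.591, 0.777 and 0.577 CPM in DEN wild-type livers, against 0.921, 0.253 and 0.147 CPM in no-DEN knockout livers and 0.0741, 0.3397 and 0.0737 CPM in no-DEN wild-type livers, with an adjusted p of 0.265. Its wild-type livers with DEN were all above those without, and its knockout livers with and without DEN overlapped, on 2 to 31 counts a liver. Spp1, osteopontin, which bile duct cells make as well, had 31.2, 32.6 and 31.01 CPM in DEN knockout livers and 30.3, 29.8 and 25.99 CPM in DEN wild-type livers, against 60.5, 27.6 and 31.5 CPM in no-DEN knockout livers and 27.2, 19.5 and 33.7 CPM in no-DEN wild-type livers, with an adjusted p of 0.685. With DEN, the knockout livers were just above the wild-type livers in Spp1 as CPM, but as TPM, at 35.7 to 36.9 in DEN knockout livers and 28.3 to 46.2 in DEN wild-type livers, they overlapped. The sign of the log2 fold change of Spp1 with DEN, -0.12 here, turned to 0.17 when libraries were scaled by size only. Gpnmb, a lysosomal glycoprotein, had 1.24, 0.244 and 0.212 CPM in DEN knockout livers and 0.361, 5.39 and 0.385 CPM in DEN wild-type livers, against 0.185, 0.102 and 0.111 CPM in no-DEN wild-type livers. Each DEN wild-type value of Gpnmb was above the no-DEN wild-type values, which rested on 3 to 5 counts.

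**Figure D4:**
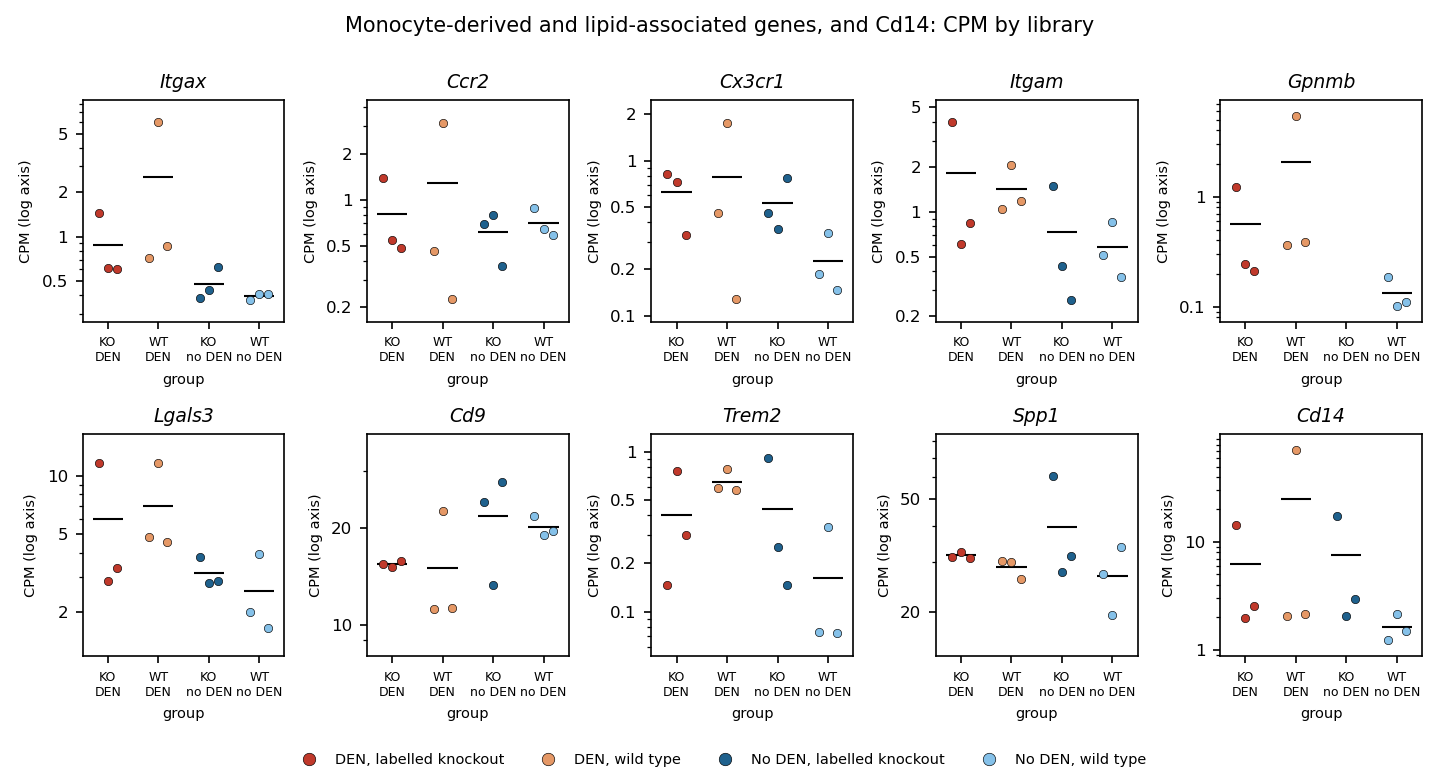
CPM (log axis) of the monocyte-derived genes, the lipid-associated genes and Cd14 by group, with livers as points and group means as bars; Gpnmb has no values for the no-DEN knockout group. DEN wild-type replicate 2 is the highest point for Itgax, Ccr2, Cx3cr1, Gpnmb and Cd14, and for Spp1 and Cd9 the livers with DEN overlap those without.

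Within each genotype the DEN effect was estimated from 3 livers against 3, and Cnr2 alone was called. Among DEN and no-DEN knockout livers, 1 of the 35 genes rose and 0 fell, where 0.147% of all genes were called higher. Cnr2 rose there by a log2 fold change of 2.24 ± 0.30 (adjusted p = 0.0226). In wild type 1 of the 35 rose and 0 fell, against 1.39% of all genes called higher, and Cnr2 rose by 1.63 ± 0.29 (adjusted p = 0.0326). At an unadjusted p under 0.05 there were 17 genes in the knockout (19.0% of all genes) and 19 in the wild type (29.7% of all genes). The median log2 fold change of the 35 was 1.13 in the knockout and 1.23 in the wild type. Livers did not overlap, in the higher direction, for 13 genes in the knockout (14.8% of all genes) and for 15 in the wild type (18.4% of all genes). The pair of comparisons shares no liver, but all 12 libraries were fitted in 1 model, so both use the same estimate of the spread. With only the groups compared, Cnr2 was called in the knockout, while 0 members were called in the wild type. Leaving out DEN knockout replicate 1 moved the median of the resident genes in the knockout to 0.57, from 1.46, and that of the shared genes to 0.51, from 1.21.

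**Figure D5:**
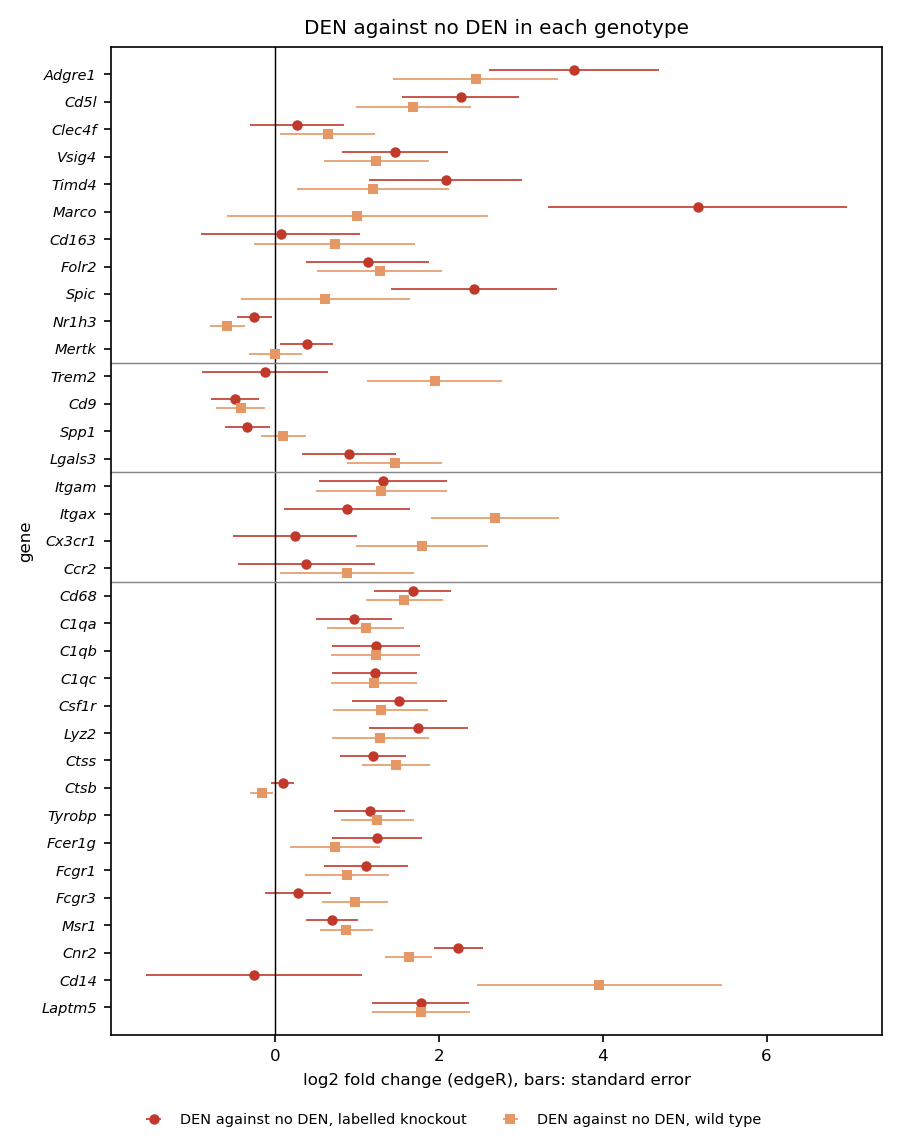
Log2 fold change of DEN against no DEN for each of the 35 genes tested, in knockout livers (circles) and wild-type livers (squares), with standard errors; grey lines part the subsets. Most genes lie right of 0 in both genotypes, the intervals do not overlap for Marco, Trem2, Itgax, Cnr2 and Cd14, and those of Marco and Cd14 are the widest.

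Between genotypes 0 of the 35 genes passed in either treatment, as 0.0% of all genes did. In DEN livers, knockout against wild type, 1 of the 35 genes had an unadjusted p under 0.05 in edgeR, against 10.1% of all genes. DESeq2 and limma-voom also called 0 of the 35. Of all genes, DESeq2 called 0.263% higher and 0.821% lower, and limma-voom called 0.0%. The smallest p values were those of Spic (log2 fold change 2.26 ± 1.0, adjusted p = 0.480), Marco (3.67 ± 1.67, adjusted p = 0.493) and Itgax (-1.53 ± 0.72, adjusted p = 0.5). All 3 rested on single livers: without DEN knockout replicate 1 Spic was at -0.67 and Marco at -0.83, and without DEN wild-type replicate 2 Itgax was at 0.17. The estimates of the subsets also turned with single livers. With all 12 libraries the 11 resident genes were all positive, with a median of 0.56, and 14 of the 16 shared genes were positive, with a median of 0.43. Without DEN knockout replicate 1, 6 resident and 1 shared gene were positive, and the medians were 0.07 and -0.25. Without both libraries that stood apart the counts were 0 and 2, and the medians -0.38 and -0.33. Without DEN wild-type replicate 2 alone they did not turn, with 8 resident and 13 shared genes positive and medians of 0.15 and 0.25. The 4 monocyte-derived genes had 1 positive value and a median of -0.51 with all libraries, and 4 positive values and a median of 0.91 without DEN wild-type replicate 2. Livers of the 2 genotypes did not overlap for 1 of the 35 genes with DEN, Spp1, where 19.6% of all genes did not.

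Without DEN, 1 of the 35 genes, Cnr2, had an unadjusted p under 0.05 between knockout and wild type, against 3.7% of all genes. DESeq2 and limma-voom called 0 of the 35. Of all genes, DESeq2 called 0.0232% higher and 0.0155% lower, and limma-voom called 0.0%. Cnr2 had a log2 fold change of -0.77 ± 0.30, Spp1 of 0.57 ± 0.27 and Fcgr3 of 0.80 ± 0.41, each with an adjusted p of 0.9999. No-DEN wild-type replicate 1 had the lowest CPM of 17 of the 35 genes and was the lowest library for 8.04% of all genes. Livers of the 2 genotypes without DEN did not overlap for 3 of the 35, with Cx3cr1 and Tyrobp higher and Ctsb lower in the knockout, as for 10.4% of all genes. The interaction was the DEN effect in the knockout minus that in the wild type. It was called by edgeR for 0 of the 35 genes and 0.0% of all. At an unadjusted p under 0.05 there were 0 of the 35 and 6.52% of all genes. DESeq2 and limma-voom called 0 of the 35. Of all genes, DESeq2 called it higher for 0.031% and lower for 0.062%, and limma-voom for 0.0%. In edgeR the 3 smallest p values of the interaction belonged to Cd14 (-4.21 ± 1.96), Trem2 (-2.07 ± 1.13) and Marco (4.15 ± 2.31), each with an adjusted p of 0.7349. Marco was at -0.35 without DEN knockout replicate 1, and Cd14 at -0.64 without DEN wild-type replicate 2.

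Other genes of macrophage biology are given from lists drawn up beside the 36, to be read against the 8.4% of all genes that rose with DEN and the 8.1% that fell. Of 10 genes tested in the CSF1 axis, chemokines and efferocytosis ligands, 3 rose with DEN and 0 fell: Axl, a receptor for apoptotic cells (log2 fold change 1.31 ± 0.21, adjusted p = 0.00764), Ccl2, the ligand of Ccr2 (1.98 ± 0.39, adjusted p = 0.0125), and Ccl5 (1.51 ± 0.41, adjusted p = 0.0332). Ccl2 was at 1.35 to 7.05 TPM with DEN and 0.28 to 0.71 TPM without. Csf1, the ligand of Csf1r, was at 2.87 to 4.23 TPM with DEN and 1.98 to 4.33 TPM without. Of 17 macrophage transcription factors 3 rose and 1 fell. Those that rose were Zeb2, needed for Kupffer cell identity (1.16 ± 0.21, adjusted p = 0.00898), Irf8 (0.95 ± 0.21, adjusted p = 0.0187) and Maf (0.79 ± 0.18, adjusted p = 0.0192). The one that fell, Nr1h2 (-0.34 ± 0.09, adjusted p = 0.0322), had a positive value, 0.07, on the TPM scale. Of 21 lysosomal and lipid-handling genes 3 rose and 1 fell. Among them were Capg (1.48 ± 0.40, adjusted p = 0.0341) and, lower with DEN, Ctsz (-0.40 ± 0.11, adjusted p = 0.0344). Ctsz was at -0.11 with library size only and -0.001 on the TPM scale.

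The iron exporter ferroportin, Slc40a1, was the 1 of 6 iron and haem genes that rose (1.06 ± 0.20, adjusted p = 0.0114), at 40.5 to 80.1 TPM with DEN and 12.3 to 28.5 TPM without. Of 5 macrophage cytokines tested 1 rose, Tgfb1 (1.62 ± 0.23, adjusted p = 0.00548). Of 7 monocyte genes tested 0 rose and 1, Ifitm3, fell (-0.59 ± 0.14, adjusted p = 0.0222). Ifitm3 was at -0.32 with library size only and -0.19 on the TPM scale. Between genotypes and in the interaction 0 genes of these lists were called. Markers of other liver cells also moved with DEN. Of 7 sinusoidal endothelial markers 6 rose, and they summed to 147 to 190 CPM in DEN livers and 51.5 to 91.5 CPM in livers without. Of 7 stellate cell and fibroblast markers 3 rose, with sums of 210.2 to 339 CPM and 72.5 to 156 CPM, and of 7 hepatocyte markers 0 rose and 1 fell. Their part in the macrophage values was not tested.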

How the data were processed

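RNA-seq of 12 livers was deposited as 1 table per group, with estimated counts and TPM for each liver. The submitters' processing notes name the genome GRCm38.p6, RSEM 1.3.1, HISAT2 2.2.1, DESeq2 1.4.5 and Bowtie2 2.3.4.3, without roles; strand handling is not given in the sources used here. The deposited expected counts were not all whole (6.58% to 7.39% of values) and were rounded to whole numbers. The deposited TPM values were used only for levels per length and ratios. Each table lists mRNA genes at 0.01 TPM or more in its 3 livers. Genes in all 4 tables that passed filterByExpr were tested with edgeR 4.0.16 (TMM, robust quasi-likelihood, 1 coefficient per group, 8 residual degrees of freedom, Benjamini-Hochberg over 12909 genes, threshold 0.05); CPM were TMM-scaled. Standard errors are the absolute log2 fold change divided by the square root of the quasi-likelihood F statistic. The pipeline was tested on simulated data. The 36 genes, subsets and lists were chosen with earlier results of these data known. Values in every liver are given for genes past the threshold and, per subset, up to 4 more by p. Alternatives used DESeq2 1.42.0, limma 3.58.1, other scalings and filters, and each liver left out. Libraries held 29668861 to 31111765 counts, so the spread between mice, not counting, limits most genes. A few genes of the lists beside the 36 are not reported here.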

Additional observations from a re-analysis of the deposited data

How the results depend on the processing

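The count of macrophage genes called with DEN over both genotypes was 12. It was 20 with DESeq2 (19 higher, 1 lower) and 19 with library size only. It was 7 with limma-voom and 22 with limma-voom with quality weights (20 higher, 2 lower). Of all genes, DESeq2 called 12.3% higher and 12.7% lower, and library size only 28% and 1.88%. The shares were 6.34% and 7.24% with limma-voom, and 20.2% and 21.8% with quality weights. With 1 library left out the count of macrophage genes ranged from 2 to 19, and 2.74% to 10.9% of all genes were called higher. It was 15 without both DEN libraries that stood apart (7.97% of all genes higher), an alternative chosen after seeing the data. The count stayed within 1.5 times of 12 with RLE size factors, no filter on low counts and a mean CPM of at least 1. It also did so with TPM and with genes missing from a table set to 0. The share of all genes called higher was 33.4% with TPM and 7.84% to 9.2% with the others. In wild type, 1 call became 6 with DESeq2 and 5 with library size only. It became 19 (17 higher, 2 lower) with quality weights and 5 on log2(TPM + 0.1). The shares of all genes called higher were 7.58%, 9.87%, 14.7% and 5.9% in that order, and quality weights called 16.5% lower. With only the groups compared the count was 0, as 0.0% of all genes were called. It was 3 without both libraries (1.42% of all genes higher), and 0 to 2 with 1 library left out (0.0% to 4.84%). In the knockout, 1 call became 7 with DESeq2, 2 with quality weights and 2 on log2(TPM + 0.1). Of all genes, 3.77%, 9.02% and 5.24% were called higher in these alternatives. With 1 library left out there were 0 to 1 calls, and 0.0% to 3.71% of all genes were called higher. Between genotypes and in the interaction, 0 of the macrophage genes were called in every alternative run. For knockout against wild type with DEN, quality weights called 1.27% of all genes higher and 2.22% lower. DESeq2 called 0.263% and 0.821%, and with genes missing from a table set to 0 the shares were 0.123% and 0.0536%. That setting also called the interaction higher for 0.0843% of all genes. Knockout against wild type with DEN, Spic was at -0.67 without DEN knockout replicate 1 and -0.58 without both libraries; Marco was at -0.092 with quality weights, -0.83 without that replicate and -1.40 without both; Itgax was at 0.17 without DEN wild-type replicate 2. The interaction of Marco was -0.35 without DEN knockout replicate 1 and -0.92 without both. With 1 library left out, the highest of these values were 2.78 for Spic and 4.69 for Marco between genotypes and 5.17 for the interaction of Marco, and the lowest for Itgax was -2.07. The summed lipid-associated level had a log2 ratio of DEN to no DEN of -0.13 with TMM, 0.17 with library size only and 0.29 as TPM. That of the shared genes was 0.32 with TMM and 0.77 as TPM. The shared sum, 710 to 1415 CPM, was largely Ctsb (543 to 701 CPM), whose log2 fold change was -0.04. The median log2 fold change of the 16 shared genes was 1.22. Scaling by library size only put the median log2 fold change of all genes at 0.278, against 0.00575 with TMM. The cause of these changes was not tested. Replicate numbers showed no clear pairing of the livers. Of 18 pairs with the same number 4 correlated above 0.1 (-0.19 to 0.22), and 5 of 12 livers correlated best with their own number. With 3 livers per group this check could miss a pairing. With the replicate block 9 genes rose over both genotypes, where 6.96% of all genes rose, and Cnr2 was called in each genotype. Values under about 30 counts, as for Cx3cr1, Ccr2 and Trem2, are limited by depth.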

Other observations

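DEN knockout replicate 1 was looked at over all 14944 genes listed, a ranking chosen after seeing the data and given without a test. The genes furthest above every other liver there, by TPM plus 0.5, were Cd209f (21.0 TPM, against at most 0.18 TPM in the other 11 livers), Marco (211 TPM, against at most 10.7 TPM), Cxcl13 (42.7 TPM, against at most 2.39 TPM), Cd209g (4.75 TPM, against at most 0.07 TPM) and Spic (16.8 TPM, against at most 1.89 TPM). Cd209f and Cd209g encode C-type lectins, and Cxcl13 is the chemokine that draws B cells into follicles. The neutrophil markers listed in all 4 tables summed to 18.8 CPM there, against 2.47 to 9.83 CPM in the other livers. Clec4f, at 59.0 CPM in this liver, was within the 14.9 to 102 CPM of the other DEN livers. No-DEN knockout replicate 1 had the most Spp1, at 60.5 CPM, and the most Trem2 as CPM, at 0.921 CPM, though as TPM it had less Trem2 (1.05 TPM) than DEN knockout replicate 2 (1.21 TPM) and DEN wild-type replicate 2 (1.67 TPM).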
